A study of Homo sapiens with 18 samples.

Results

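ODAPH, TMEM88, R3HDML and GXYLT2 are 4 genes of 18377 measured whose expression went up with TGFβ in A549 cells and which were picked for a smaller rise after silencing of the atypical protein kinases C. Each was read by 1 probe set that carries its symbol alone. They were chosen by their TGFβ responses and by how these differed between the arms, so those values are given as a description, without a test. A549 is an established human lung adenocarcinoma line. Its cells received siRNA against PKCiota and PKCzeta (siPKCiz) or a control siRNA (siControl), grew in 10% serum, were serum starved and took 250 pM TGFβ for 1 h. After washing they stayed in medium with 0.2% serum, and RNA was taken 8 h or 24 h after treatment. The 6 groups were siPKCiz untreated, at 8 h and at 24 h, and siControl untreated, at 8 h and at 24 h, with 3 biological replicates each and 18 arrays in all. No collection time is stated for untreated cells, and every group is this 1 cell line with a transient knockdown. The number of arrays limits the precision.

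TGFβ signals through a pair of serine/threonine kinase receptors that phosphorylate SMAD proteins, and nuclear SMAD complexes activate target genes together with partners such as AP-1. In lung adenocarcinoma lines the ligand is known for driving an epithelial to mesenchymal transition. The atypical PKCs act without diacylglycerol or calcium and are best known as kinases of the Par polarity complex. ODAPH encodes a secreted phosphoprotein of developing enamel, and its loss causes amelogenesis imperfecta. TMEM88 encodes a membrane protein that binds Dishevelled and dampens Wnt signalling through beta-catenin. R3HDML encodes a putative secreted member of the CAP superfamily, related to the peptidase inhibitors PI15 and PI16. GXYLT2 encodes a xylosyltransferase that extends O-linked glucose on the EGF repeats of Notch receptors.

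The genes lie on 4 chromosomes in RefSeq on GRCh38.p14: ODAPH at chr4:75556066-75565893, TMEM88 at chr17:7855066-7856099, R3HDML at chr20:44337043-44351238 and GXYLT2 at chr3:72888046-72976915. RefSeq promoter entries of that build matched 3 of the 4 genes, and the 250 bases before the start of each are shown because the genes respond together and their promoters can be read for SMAD and AP-1 letters. The windows are chr4:75555816-75556065, chr20:44336793-44337042 and chr3:72887796-72888045, all on the plus strand. Capitals mark matches to CAGAC, the core SMAD-binding letters (GTCTG on the other strand), to GTCTAGAC, the palindromic SMAD-binding element, and to TGANTCA, the AP-1 letters.
ODAPH: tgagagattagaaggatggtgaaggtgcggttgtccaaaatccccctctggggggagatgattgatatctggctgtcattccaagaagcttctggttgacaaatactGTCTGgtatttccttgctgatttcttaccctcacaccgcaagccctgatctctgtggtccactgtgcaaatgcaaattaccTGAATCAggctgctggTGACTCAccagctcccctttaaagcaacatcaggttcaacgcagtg
R3HDML: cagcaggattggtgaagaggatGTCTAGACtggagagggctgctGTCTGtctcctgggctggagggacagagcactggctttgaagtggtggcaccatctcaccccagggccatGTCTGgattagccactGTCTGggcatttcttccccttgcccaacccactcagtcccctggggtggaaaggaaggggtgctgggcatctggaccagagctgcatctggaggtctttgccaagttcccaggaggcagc
GXYLT2: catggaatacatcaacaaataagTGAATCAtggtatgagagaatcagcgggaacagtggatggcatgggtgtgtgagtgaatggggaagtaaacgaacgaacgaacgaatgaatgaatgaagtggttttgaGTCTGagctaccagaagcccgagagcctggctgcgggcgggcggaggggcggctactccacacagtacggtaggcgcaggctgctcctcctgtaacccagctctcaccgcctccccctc
The ODAPH window held TGANTCA at 62 and again at 46 bases before the start, and CAGAC at 143. The R3HDML window held GTCTAGAC at 228 and CAGAC at 206, 136 and 120. The GXYLT2 window held TGANTCA at 227 and CAGAC at 119. Of 22199 windows of this length before protein-coding genes, 37.2% held CAGAC, 5.36% held TGANTCA and 0.207% held GTCTAGAC, on either strand. The TEAD letters CATTCC were in the ODAPH window (10.5% of all windows), GGCGC was in that of GXYLT2 (55.0%) and GGAAAG was in that of R3HDML (23.1%). The TATA box letters TATAAA (9.0% of all windows), the E-box letters CACGTG (7.37%) and the CRE letters TGACGTCA (2.01%) were in none of the 3 windows. None of these matches overlapped another, and a match describes letters, not binding.

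PRKCI, which encodes PKCiota, was at 17.4% to 23.3% of the same-numbered siControl array on all 9 siPKCiz arrays. PRKCZ, which encodes PKCzeta, was at 33.1% to 40% in replicates 2 and 3, but at 91.4%, 82.3% and 68.2% in replicate 1 without ligand, at 8 h and at 24 h. Replicate 1 thus kept more PRKCZ signal relative to siControl, and the part of this in the results below was not tested. The lowest intensity on an array was 21.2 to 21.9 on the 6 arrays of replicate 1 and 22.5 to 23.9 on the other 12. Replicates of a group correlated at 0.992 to 0.998 across genes, and array medians lay between 156.1 and 160.7. The epithelial genes KRT8, KRT18, KRT19, EPCAM and CDH1 were all above the array median in every group mean. Of these 5, 2 fell at 24 h in siPKCiz (list median -0.54) and 3 fell in siControl (-1.07), and 1 was higher in siPKCiz than in siControl at 24 h. Their summed intensity at 24 h was 11100 to 12400 in siPKCiz and 9850 to 12100 in siControl. Of 5 alveolar type 2 markers 1 or 2 were above it. On the 18 arrays ABCA3 was at 679 to 1020, SFTPD at 131 to 194 and SFTPC, the defining surfactant gene, at 82.2 to 107. Of 4 leukocyte markers 1 was above it, CD68 at 679 to 1070, and PTPRC was at 46.1 to 55.6. Of 5 endothelial markers 0 were above it and PECAM1 was at 60.6 to 85.1. The summed intensity of 5 fibroblast markers was 698 to 804, 685 to 802 and 999 to 1130 in siPKCiz untreated, at 8 h and at 24 h, and 784 to 925, 735 to 831 and 1020 to 1090 in siControl. That sum was highest at 24 h in both arms, and the part of either shift in the results at 24 h was not tested.

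ODAPH, the enamel phosphoprotein gene, had the widest gap between the arms. Untreated arrays gave intensities of 66.1, 54.8 and 49.2 in siPKCiz replicates 1 to 3 and 63.6, 54.0 and 63.8 in siControl, all below the array median. At 8 h the values were 150.4, 84.5 and 92.7 in siPKCiz and 348.7, 383.9 and 443.3 in siControl. All 3 siPKCiz arrays lay below all 3 siControl arrays. At 24 h they were 272.9, 114.2 and 96.9 in siPKCiz and 111.9, 597.2 and 555.0 in siControl. The groups overlapped at 24 h because replicate 1 went the other way, with the highest value of siPKCiz and the lowest of siControl. The response at 8 h was 0.91 ± 0.46 log2 units in siPKCiz and 2.69 ± 0.46 in siControl (SE, n = 3 per group). That was 1.54-fold to 2.28-fold over the siPKCiz replicates and 5.48-fold to 7.11-fold over the siControl replicates. Untreated ODAPH lay in the range of PTPRC and PECAM1, near background, and its folds depend on that low signal: with 16 added to every intensity the response at 8 h was 0.75 in siPKCiz and 2.41 in siControl.

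TMEM88, the Dishevelled-binding gene, followed ODAPH closely. Its untreated intensities were 153.9, 151.8 and 151.6 in siPKCiz and 126.5, 170.9 and 244.5 in siControl. At 8 h they were 467.9, 244.7 and 280.6 in siPKCiz and 833.5, 937.8 and 770.4 in siControl. The 2 arms did not overlap at 8 h. At 24 h the values were 727.7, 287.3 and 334.9 in siPKCiz and 329.1, 810.1 and 889.1 in siControl, and replicate 1 again crossed over. The response at 8 h was 1.06 ± 0.35 log2 units in siPKCiz and 2.28 ± 0.35 in siControl (SE). Over the 18 arrays TMEM88 and ODAPH correlated at 0.961 (Pearson, log2), the closest pair among the 4 genes.

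R3HDML, the CAP family gene, had its highest values at 24 h in both arms. Untreated intensities were 211.3, 216.3 and 158.0 in siPKCiz and 94.7, 214.1 and 164.3 in siControl. At 8 h they were 796.4, 361.1 and 314.1 in siPKCiz and 637.3, 788.6 and 702.2 in siControl. The arms overlapped at 8 h, since siPKCiz replicate 1 was above every siControl array. At 24 h the values were 1714.8, 1064.1 and 1028.4 in siPKCiz and 1073.6, 2000.2 and 2115.8 in siControl. The arms overlapped again, with siPKCiz above siControl in replicate 1 and below it in replicates 2 and 3.

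GXYLT2, the Notch xylosyltransferase gene, had the smallest gap between the arms. Untreated intensities were 336.1, 499.5 and 482.0 in siPKCiz and 233.6, 442.6 and 415.9 in siControl. At 8 h they were 1862.5, 1229.3 and 1444.0 in siPKCiz and 2197.6, 1823.8 and 1924.7 in siControl. The overlap at 8 h came from siPKCiz replicate 1. At 24 h they were 3666.5, 1846.7 and 1729.8 in siPKCiz and 1955.7, 2746.2 and 2193.2 in siControl, with geometric means of 2271 and 2275. The mean difference of -0.00 ± 0.26 log2 units (SE) joined opposite signs, 0.91 in replicate 1 against -0.57 and -0.34 in replicates 2 and 3.

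**Figure D1:**
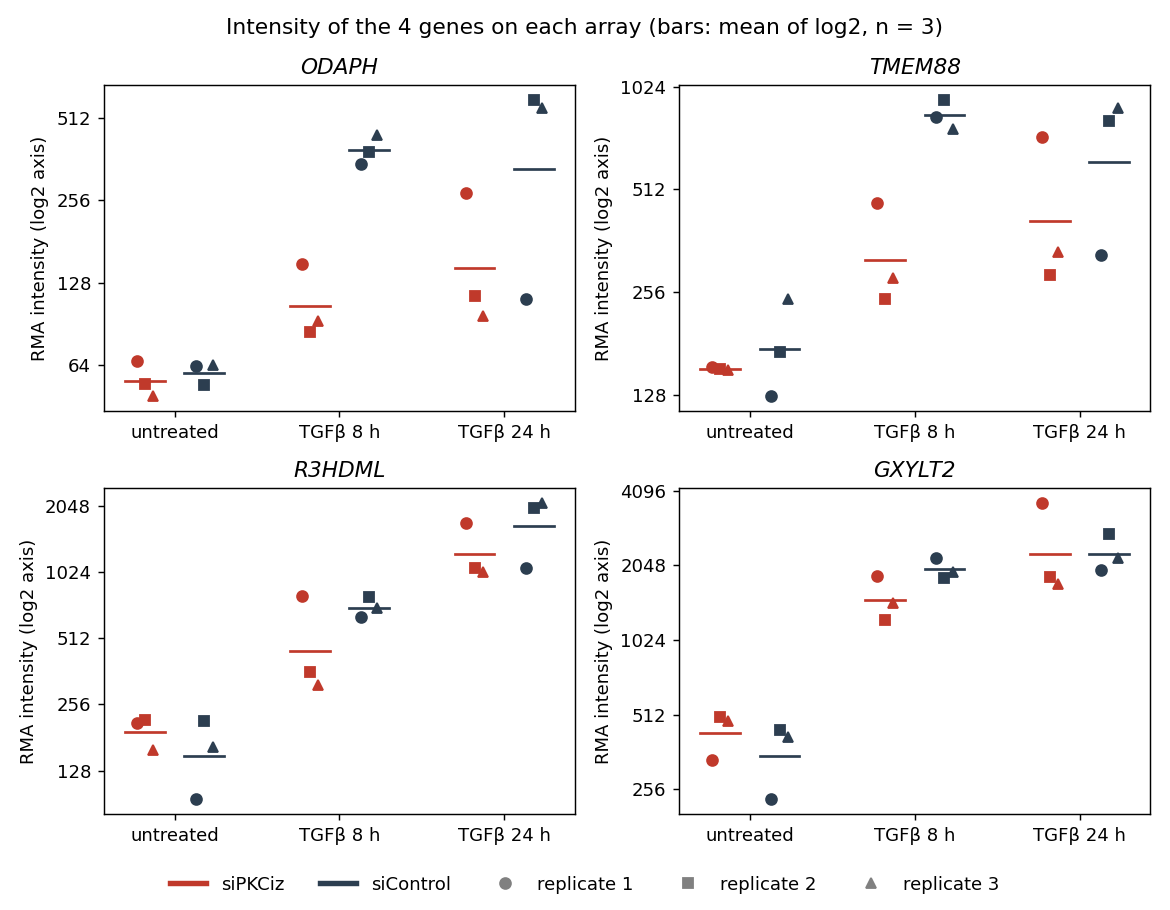
RMA intensity (log2 axis) of ODAPH, TMEM88, R3HDML and GXYLT2 on each array, with siPKCiz left of siControl at each time, a marker shape per replicate number and a bar at the mean of the log2 values (n = 3). At 24 h replicate 1 of siPKCiz was above replicate 1 of siControl in all 4 genes, for example 272.9 against 111.9 for ODAPH.

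In each arm and at each time, all TGFβ arrays lay above all untreated arrays for the 4 genes. Across all genes that held in 12.1% (8 h) and 12.8% (24 h) of genes in siPKCiz and in 12.4% (8 h) and 11.9% (24 h) in siControl. In order of the group means, both untreated groups were lowest for every gene and overlapped each other. The treated groups then ran from siPKCiz at 8 h to siPKCiz at 24 h, siControl at 24 h and siControl at 8 h for ODAPH and TMEM88, with each neighbour overlapping the next. For R3HDML and GXYLT2 both 8 h groups came before both 24 h groups. Among the treated groups, the 1 pair of neighbours without overlap was siControl at 8 h and siPKCiz at 24 h for R3HDML. The step from the untreated groups to siPKCiz at 8 h had no overlap in any of the 4 genes. Between the arms, siPKCiz arrays lay entirely below siControl arrays for 2 of 4 genes at 8 h, beside 11.8% of all genes, and for 0 of 4 at 24 h, beside 9.08%.

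With same-numbered arrays subtracted, the TGFβ response at 8 h was smaller in siPKCiz in all 3 replicate numbers for each of the 4 genes. A response smaller in siPKCiz in all 3 replicate numbers was found in 12.5% of all genes. The numbers were not taken to pair the samples, and across numbers the responses of R3HDML and GXYLT2 overlapped between the arms. R3HDML was at 1.91 in siPKCiz replicate 1 and at 1.88 in siControl replicate 2. GXYLT2 was at 2.47 in siPKCiz replicate 1 and at 2.04 and 2.21 in siControl replicates 2 and 3. The difference, siPKCiz minus siControl, was -1.79 ± 0.65 log2 units for ODAPH, -1.22 ± 0.50 for TMEM88, -1.03 ± 0.47 for R3HDML and -0.71 ± 0.37 for GXYLT2 (SE). The parts of the difference varied between genes. For ODAPH it was -1.88 between the arms at 8 h and -0.10 in untreated cells. For TMEM88 the same values were -1.41 and -0.19. For R3HDML they were -0.66 at 8 h and 0.37 in untreated cells, and for GXYLT2 -0.41 and 0.30. The R3HDML means hide a split between replicates. In replicate 1 R3HDML was higher in siPKCiz by 1.16 untreated and by 0.32 at 8 h. In replicates 2 and 3 it was at 0.02 and -0.06 untreated and at -1.13 and -1.16 at 8 h.

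**Figure D2:**
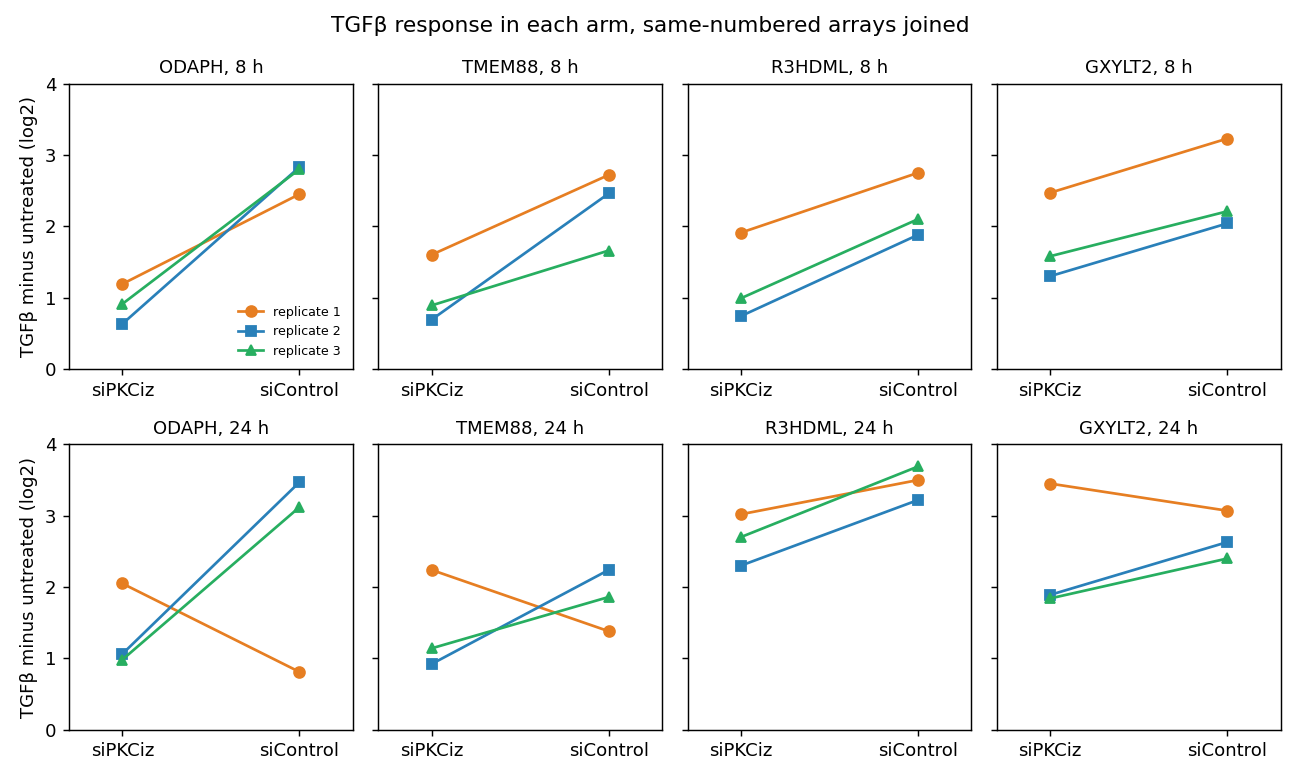
TGFβ response (treated minus untreated, log2) of each gene in siPKCiz (left) and siControl (right), with arrays of the same replicate number joined. At 8 h (top) all lines run upwards to siControl; at 24 h (bottom) replicate 1 runs downwards for ODAPH, TMEM88 and GXYLT2.

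At 24 h the smaller response in siPKCiz was seen in all 4 genes in replicates 2 and 3, but in R3HDML alone in replicate 1. The difference was -1.11 ± 0.65 for ODAPH, -0.39 ± 0.50 for TMEM88, -0.80 ± 0.47 for R3HDML and -0.31 ± 0.37 for GXYLT2 (log2, SE). In replicate 1 it was 1.23 for ODAPH, 0.86 for TMEM88 and 0.38 for GXYLT2, the opposite sign, and -0.48 for R3HDML. R3HDML in replicate 1 was itself higher in siPKCiz, by 1.16 untreated and by 0.68 at 24 h. The mean parts, siPKCiz minus siControl at 24 h and untreated, were -1.21 and -0.10 for ODAPH and -0.59 and -0.19 for TMEM88. They were -0.43 and 0.37 for R3HDML and -0.00 and 0.30 for GXYLT2. Over replicates 2 and 3 alone the mean was -2.28, -1.02, -0.96 and -0.65 in the same order of genes. A response smaller in siPKCiz in all 3 replicate numbers at 24 h was found in 14.6% of all genes, and R3HDML was the 1 member with it.

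The crossing of replicate 1 at 24 h was also seen in the median of 24 direct TGFβ target genes, a list that included SMAD7, SNAI1, SNAI2, PMEPA1 and CCN2. Their response at 24 h was smaller in siPKCiz than in siControl for 5 of 24 genes in replicate 1. It was smaller for 18 of 24 in replicate 2 and 13 of 24 in replicate 3. Over all genes the shares with a smaller response were 50.3%, 53.8% and 52.2% in replicates 1 to 3. The median response of the list at 24 h in replicate 1 was 0.80 log2 units in siPKCiz and 0.52 in siControl. In replicate 2 it was 0.74 in siPKCiz and 1.09 in siControl, and in replicate 3 it was 0.75 in siPKCiz and 0.94 in siControl. PRKCI in replicate 1 at 24 h was at 457.3 in siPKCiz and 2632.6 in siControl, lower in siPKCiz as in the other replicates. At 8 h the list's median difference of responses was -0.09, -0.04 and -0.13 in replicates 1 to 3, beside -0.98, -1.45 and -0.94 for the 4 chosen genes. Those 4 genes were picked for this difference, so a larger value than that of the list follows from the choice.

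**Figure D3:**
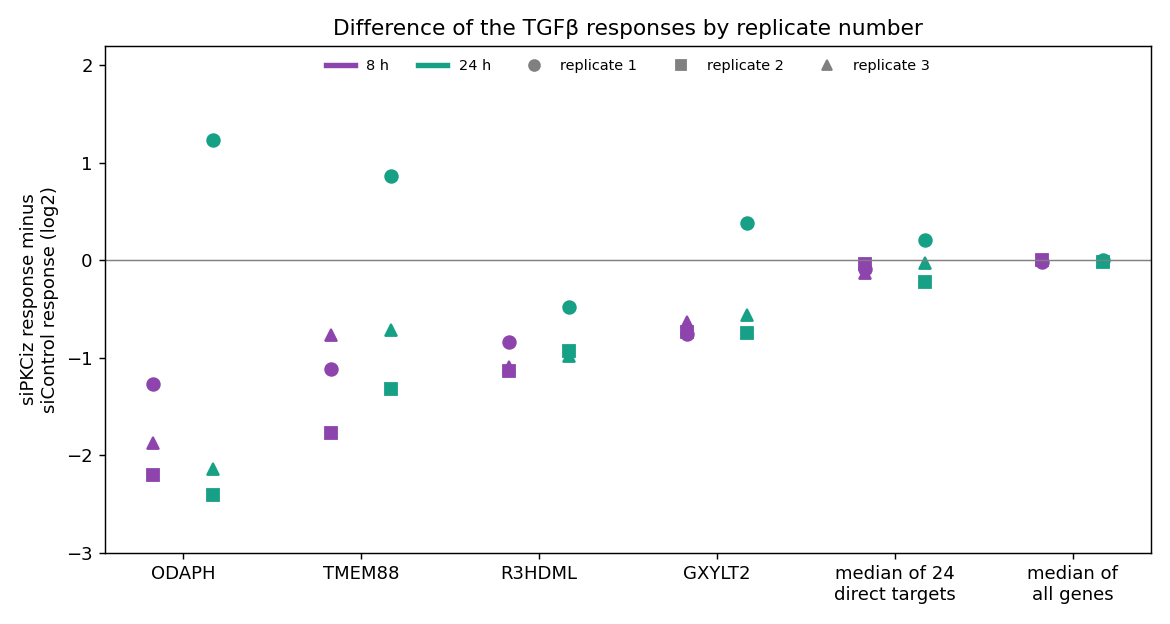
TGFβ response in siPKCiz minus that in siControl (log2) by replicate number, for the 4 genes, the median of 24 direct TGFβ target genes and the median of all genes, at 8 h and 24 h. Replicate 1 at 24 h lies above 0 for ODAPH (1.23), TMEM88 (0.86), GXYLT2 (0.38) and the target list (0.21).

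Over all 18377 genes, limma with Benjamini-Hochberg adjustment over all genes called 0 genes at an adjusted p under 0.05 for the difference of responses at 8 h, and 0 at 24 h. At an unadjusted p under 0.05 there were 625 and 705 genes. Without replicate 1 limma called 58 genes at 8 h and 80 at 24 h at an adjusted p under 0.05. Without replicate 2, or without replicate 3, it called 0 at both times.

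The change from 8 h to 24 h is the 24 h response minus the 8 h response, so it is built from the values that chose the genes and is given without a test. R3HDML was at 1.46 ± 0.33 log2 units (24 h minus 8 h, 2.75-fold; SE, n = 3 per group) in siPKCiz and 1.23 ± 0.33 (2.34-fold) in siControl. In both arms its 3 arrays at 24 h lay above its 3 arrays at 8 h, which 7.84% of all genes did in siPKCiz and 7.3% in siControl. None of the other 3 genes did so in either arm. Over all genes limma called 0.805% between the times in siPKCiz (0.386% higher, 0.419% lower) and 2.41% in siControl (1.31% higher, 1.1% lower).

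GXYLT2 was at 0.61 ± 0.26 (24 h minus 8 h) in siPKCiz and 0.20 ± 0.26 in siControl, and TMEM88 at 0.37 ± 0.35 in siPKCiz and -0.45 ± 0.35 in siControl (SE). ODAPH was at 0.45 ± 0.46 in siPKCiz and -0.23 ± 0.46 in siControl. Without replicate 1 the ODAPH value in siControl was 0.48, with the opposite sign.

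Over all genes limma called 3.58% for silencing in untreated cells (2.12% higher). For the 4 genes this comparison is given without a test. The values were -0.10 ± 0.46 for ODAPH, -0.19 ± 0.35 for TMEM88, 0.37 ± 0.33 for R3HDML and 0.30 ± 0.26 for GXYLT2 (log2, SE). The intervals reached from -1.06 to 0.86, from -0.93 to 0.54, from -0.32 to 1.06 and from -0.25 to 0.85. The untreated arrays also enter the responses that chose the genes.

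TMEM88 shared its profile with the gene beside it. KDM6B, a demethylase of lysine 27 on histone H3, lies 269 bases from TMEM88 on chromosome 17 (chr17:7834217-7854796), and of all genes measured it was the most like TMEM88 over the 18 arrays (Pearson r = 0.978). KDM6B intensities at 8 h were 1331.1, 690.2 and 822.4 in siPKCiz and 1769.3, 1514.4 and 1636.7 in siControl. At 24 h they were 1435.9, 819.4 and 809.8 in siPKCiz and 734.2, 1781.9 and 1604.0 in siControl, with replicate 1 crossed as in TMEM88. Untreated values were 358.2, 405.0 and 420.6 in siPKCiz and 400.4, 507.6 and 549.6 in siControl. KDM6B rose at 8 h by 1.21 ± 0.28 log2 units in siPKCiz (limma adjusted p = 0.0121) and by 1.76 ± 0.28 in siControl (adjusted p = 0.000358). The call in siPKCiz was lost without replicate 2 (adjusted p = 0.0651) or replicate 3 (0.128). Its difference of responses at 8 h was -0.55 ± 0.40 (adjusted p = 1). Of 1829 pairs of measured neighbours under 1000 bases apart, 2 correlated this closely, that pair included, and the median was 0.13. The response that chose TMEM88 enters its r, and the 1829 pairs were not matched for response. The place of this pair among them is thus a description only. Probe positions were not used here, and whether signal of one gene reaches the probe set of the other was not tested.

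**Figure D4:**
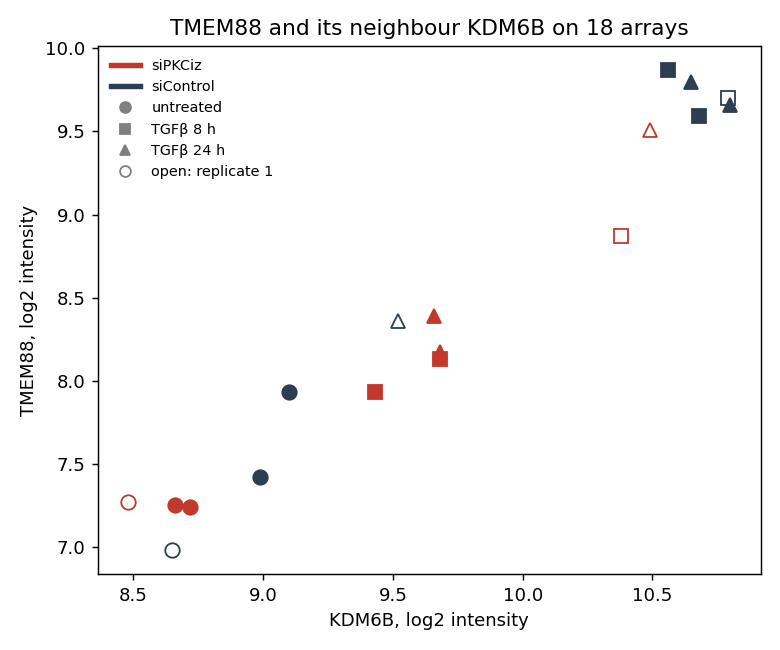
TMEM88 against KDM6B, log2 intensity on 18 arrays (colour: arm; shape: time; open: replicate 1). The arrays run along 1 diagonal (r = 0.978); in replicate 1 at 24 h siPKCiz sits above siControl in both genes.

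Of the other neighbours, FITM2 and NAA38 were called. NAA38, an acetyltransferase subunit gene 585 bases from TMEM88 on its other side, fell at 24 h by 0.35 ± 0.087 in siPKCiz (adjusted p = 0.013) and by 0.50 ± 0.087 in siControl (adjusted p = 0.000596). FITM2, a lipid droplet gene 25840 bases from R3HDML, rose at 8 h by 0.59 ± 0.14 in siPKCiz (adjusted p = 0.0139) and 1.08 ± 0.14 in siControl (adjusted p = 5.57e-05), and its profile correlated with R3HDML at 0.81. Untreated FITM2 was already higher in siPKCiz than in siControl by 0.62 ± 0.14 (limma adjusted p = 0.018), where 2.12% of all genes were called higher. At 8 h the arms differed in FITM2 by 0.13 ± 0.14 (limma adjusted p = 0.647). THAP6 and CDKL2 beside ODAPH, SHQ1 and PPP4R2 beside GXYLT2, and the noncoding LINC01620 beside R3HDML were not called in either arm at either time (limma adjusted p of 0.0924 or more). Their profiles correlated with the gene beside them at -0.02 for THAP6, -0.83 for CDKL2, 0.84 for SHQ1, 0.66 for PPP4R2 and 0.63 for LINC01620.

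The genes with the most similar profiles, ranked by Pearson r over the 18 arrays, differed by member. These arrays share group structure, so r is a description only. Genes ranked by r over these arrays share the member's pattern by the ranking itself. ODAPH was closest to IL1A, an inflammatory cytokine gene (0.968), then TMEM88, the matricellular gene CCN1 (0.960), the repressor ZEB1 (0.959) and FRMD8 (0.959). IL1A responded by 0.92 in siPKCiz and 1.94 in siControl at 8 h, and CCN1 by 0.62 in siPKCiz and 1.45 in siControl (log2). After KDM6B, TMEM88 was closest to the integrin activator gene FERMT1 (0.975), the sphingosine kinase SPHK1 (0.972), the endosomal gene WDR91 (0.968) and the kinase NUAK1 (0.964). SPHK1 responded at 8 h by 0.85 in siPKCiz and 1.69 in siControl, and NUAK1 by 0.74 in siPKCiz and 0.98 in siControl. R3HDML was closest to the matrix gene CCDC80 (0.979), VSTM4 (0.978), the collagen COL4A2 (0.977), CLSTN1 (0.972) and COL4A1 (0.969). COL4A1, a basement membrane collagen, responded at 24 h by 2.14 in siPKCiz and 2.27 in siControl. GXYLT2 was closest to TNS1, a focal adhesion gene (0.987), TRAPPC10 (0.976), the metalloproteinase inhibitor TIMP3 (0.974), CTIF (0.973) and the smooth muscle coactivator MYOCD (0.972). TNS1 responded at 8 h by 1.55 in siPKCiz and 1.69 in siControl, and TIMP3 by 1.29 in siPKCiz and 1.94 in siControl.

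Of the pathway of GXYLT2, 29 Notch genes were measured. At 8 h 2 rose and 0 fell in siPKCiz, and 7 rose and 1 fell in siControl, where 6.48% (3.13% higher, 3.35% lower) and 11.4% (5.17% higher, 6.18% lower) of all genes were called. At 24 h 6 rose and 2 fell in siPKCiz, and 8 rose and 2 fell in siControl, beside 10.7% (4.65% higher, 6.09% lower) and 12.3% (5.85% higher, 6.46% lower) of all genes. The list's median changes at 8 h were 0.03 in siPKCiz and 0.02 in siControl. The receptor NOTCH2 rose at 24 h by 0.52 ± 0.088 in siPKCiz and 0.59 ± 0.088 in siControl, and the ligand JAG1 rose in siControl by 0.59 ± 0.087. HES1, a Notch target, rose at 8 h in siControl by 0.60 ± 0.15 and was lower in siPKCiz than in siControl at 8 h by 0.70 ± 0.15 (limma adjusted p = 0.0101; 1.9% of all genes were called lower). HEY1, another target, rose at 8 h by 0.34 ± 0.086 in siPKCiz and 0.58 ± 0.086 in siControl. GXYLT1, the paralog of GXYLT2, rose at 8 h in siControl by 0.31 ± 0.093 (adjusted p = 0.0336) and was at 0.20 ± 0.093 in siPKCiz (adjusted p = 0.26). The difference of these responses, siPKCiz minus siControl, was -0.11 ± 0.13. Between the arms GXYLT1 was at -0.20 ± 0.093 untreated (limma adjusted p = 0.27) and at -0.31 ± 0.093 at 8 h (0.0561), neither called. At 24 h GXYLT1 was lower in siPKCiz by 0.38 ± 0.093 (adjusted p = 0.0285; 3.19% of all genes were called, 1.51% higher and 1.68% lower). GXYLT2 at that time was at -0.00 with an interval of -0.55 to 0.55, and the 2 genes were not compared by a test. RBPJ, the DNA-binding factor of the Notch pathway, was higher in siPKCiz by 0.57 ± 0.11 untreated (adjusted p = 0.00543) and by 0.48 ± 0.11 at 8 h (adjusted p = 0.0142). The enzyme EOGT, which adds N-acetylglucosamine to EGF repeats, was lower in siPKCiz in all 3 conditions, by 0.41, 0.56 and 0.49 without ligand, at 8 h and at 24 h.

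Of 36 Wnt pathway genes, around TMEM88, 3 rose and 1 fell at 8 h in siPKCiz and 6 rose and 5 fell in siControl, beside 6.48% and 11.4% of all genes called. At 24 h 6 rose and 3 fell in siPKCiz and 7 rose and 6 fell in siControl, beside 10.7% and 12.3%. The list's median change at 8 h was 0.00 in siPKCiz and -0.00 in siControl. The ligand WNT7A rose at 24 h by 1.42 ± 0.36 in siPKCiz and 2.13 ± 0.36 in siControl. DVL1, a Dishevelled gene, rose at 8 h by 0.63 ± 0.13 in siPKCiz and 0.68 ± 0.13 in siControl. The antagonist DKK1 fell at 24 h in siControl by 1.11 ± 0.17 and was higher in siPKCiz than in siControl at that time by 0.86 ± 0.17 (limma adjusted p = 0.00779). NKD1, a Dishevelled-binding feedback inhibitor, rose at 8 h in siControl by 0.87 ± 0.14. It was lower in siPKCiz than in siControl at 8 h by 0.59 ± 0.14 (limma adjusted p = 0.023). Between the arms at 8 h 5.41% of all genes were called, 3.52% higher and 1.9% lower.

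Of 10 CAP family genes measured, around R3HDML, 1 rose and 2 fell at 8 h in siPKCiz and 2 rose and 1 fell in siControl, where 6.48% and 11.4% of all genes were called. At 24 h 1 rose and 1 fell in each arm, beside 10.7% in siPKCiz and 12.3% in siControl. GLIPR1, a membrane-bound member, rose at 24 h by 1.25 ± 0.19 in siPKCiz and 1.01 ± 0.19 in siControl, and untreated it was lower in siPKCiz by 0.92 ± 0.19 (limma adjusted p = 0.0103). PI15 was at 0.12 ± 0.089 in siPKCiz and 0.08 ± 0.089 in siControl at 8 h, and PI16 at -0.22 ± 0.13 in siPKCiz and -0.03 ± 0.13 in siControl. Neither was called, and the mean log2 intensity of PI15 was 5.58 to 5.71 in the 6 groups.

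Of 25 enamel and mineralised matrix genes, around ODAPH, 0 were called at 8 h in siPKCiz by limma and 2 rose in siControl. At 24 h 1 rose in siPKCiz and 3 rose in siControl. These shares, 0% and 8% at 8 h and 4% and 12% at 24 h, were below or near the 6.48%, 11.4%, 10.7% and 12.3% of all genes called. ITGB6, an integrin chain whose loss also causes amelogenesis imperfecta, rose at 24 h by 1.93 ± 0.42 in siPKCiz and 2.00 ± 0.42 in siControl. AMTN, the enamel gene amelotin, rose at 24 h in siControl by 0.73 ± 0.19 and the laminin gene LAMB3 by 0.65 ± 0.15. The list's median at 24 h was 0.09 in siPKCiz and 0.03 in siControl. The calls of the Notch, Wnt, CAP and enamel lists together in siControl depended on replicates 2 and 3: 24 genes at 8 h became 8 without either, and 28 at 24 h became 11 without replicate 2 and 8 without replicate 3. Of 24 direct TGFβ targets 18 rose and 1 fell at 8 h in siPKCiz and 19 rose in siControl, with medians of 0.87 in siPKCiz and 0.99 in siControl. Of that list 2 were lower in siPKCiz than in siControl at 8 h, SPHK1 by 0.98 ± 0.21 (adjusted p = 0.0131) and CCN1 by 0.92 ± 0.22 (adjusted p = 0.0198).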

How the data were processed

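The deposited table holds RMA intensity on a linear scale, made by the authors. RMA and Partek were their tools, per the submitters' processing notes, with versions not given in the sources used here. A log scale was planned: the design had been written for log2 values; since the deposited values were linear, log2 was taken once and no other normalization was applied. Per the labels' protocols 200 ng of RNA was labelled per array. Of 28869 probe sets, 19310 carried 1 gene symbol, 1752 several and 7807 none listed here. The brightest probe set stood for each gene (933 others left out), giving 18377 genes. The model had a mean for each of the 6 groups over 18 arrays (limma 3.58.1, R 4.3.3; 12 residual and 18.1 total degrees of freedom). Calls needed an adjusted p under 0.05 (Benjamini-Hochberg, all genes). The ± values on changes are standard errors of this fit, and intervals are 95% t intervals. For TGFβ against untreated the median standard error was 0.1. The steps were tested on simulated data. Array data have no read depth.

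The members and lists were chosen with earlier results of these data known. Genes named were the 4 members, PRKCI and PRKCZ, the 5 genes most correlated with each member, the nearest measured gene on each side, the paralogs GXYLT1, PI15 and PI16, and up to 4 called genes with the largest change per list and comparison. Of 10 lists, the Notch, Wnt, CAP, enamel and direct target lists were counted, and those of epithelium, alveolar type 2 cells, leukocytes, fibroblasts and endothelium described. Same-numbered arrays were subtracted for values per replicate. Across groups their deviations from the group means correlated at -0.51 to 0.26, with 7 of 45 pairs over 0.1, so the numbers were not taken to pair the samples. The planned tests of the members between 24 h and 8 h and in untreated cells are not given in the report. Those changes are built from values that also enter the responses that chose the genes.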

Additional observations from a re-analysis of the deposited data

Results flagged for a closer look

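NKD1 and PI16 moved in opposite directions between 8 h and 24 h in the 2 arms on every same-numbered pair of arrays. NKD1 averaged 0.21 log2 units in siPKCiz and -0.24 in siControl, a difference of 0.45 (limma adjusted p = 0.998). PI16 averaged 0.20 in siPKCiz and -0.07 in siControl, a difference of 0.27 (limma adjusted p = 0.998). Neither difference passed the test over all genes.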

How the results depend on the processing

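The smaller response at 8 h in siPKCiz had a median over the 4 genes of -1.12 log2 units, from -1.22 to -0.96 when a replicate number was left out. The 4 genes were chosen on this difference with the same arrays, so neither its sign nor this range is an independent check. At 24 h the median was -0.60, from -0.99 to -0.27 when a replicate number was left out and -1.30 without the 24 h arrays of replicate 1 in both arms, an alternative chosen after seeing the data. For TMEM88 it was 0.07 without replicate 2 and -1.02 without replicate 1, the 1 sign change among the 4 genes when a replicate number was left out. Counts of members called between 24 h and 8 h are built from the responses that chose the genes and are not given. Several changes turned sign between settings, as follows. ODAPH between the times in siControl was at 0.12 with array weights, 0.48 without replicate 1 (-0.66 without replicate 2) and 0.56 without the 24 h arrays of replicate 1, and in siPKCiz at -0.01 without those arrays. TMEM88 without them was at 0.01 in siControl and -0.04 in siPKCiz. In untreated cells silencing of ODAPH was at 0.04 and TMEM88 at 0.06 without replicate 3 (-0.18 and -0.43 without replicate 1), and R3HDML at -0.04 with array weights, -0.02 without replicate 1 and 0.59 without replicate 3. No cause was tested. The 4 family lists held 24 called genes at 8 h and 28 at 24 h in siControl, 8 to 29 and 8 to 28 when a replicate number was left out, and 19 and 23 with the block. No array of the 18 (0) was closest to one of the same number, a check that group differences dominate. The arrays of replicate 1 nonetheless shared a lower minimum intensity, and whether they were processed together was not tested.

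Counts over all genes moved more. Leaving out a replicate number gave 323 to 1123 calls at 8 h in siPKCiz (1191 with all arrays), 780 to 1737 at 24 h (1974), 681 to 2917 at 8 h in siControl (2087) and 755 to 2872 at 24 h (2262). It gave 1 to 299 between the times in siPKCiz (148), 11 to 670 in siControl (443) and 27 to 1513 for silencing in untreated cells (657). The block gave 77 and 262 between the times in siPKCiz and siControl, only the groups compared 27 and 211, and array weights 388 in siPKCiz, 2956 for silencing, and 1871, 3485 and 3483 for TGFβ at 8 h in siPKCiz, at 8 h in siControl and at 24 h in siControl. Without the 24 h arrays of replicate 1 there were 54 calls between the times and 1255 at 24 h in siPKCiz. For the difference of responses, 0 with all arrays, only the groups compared gave 2 at 8 h, and array weights gave 1 and leaving out those arrays 19 at 24 h. Signal near background limits ODAPH, whose untreated intensity was 49.2 to 66.1: with 16 added before the log its response at 8 h in siControl was 2.41.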
